A study of Macaca mulatta with 24 samples.

Results

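Ventral premotor cortex (PMv) was set against prefrontal area 46 (A46) in the neocortex of rhesus monkeys (Macaca mulatta). The comparison takes the 6 arrays whose titles name PMv and the 6 whose titles name A46, which are 12 of the 24 arrays of the series. Each area contributed 1 tissue piece from the left and 1 from the right hemisphere of the same 3 adolescent animals. Animals 1 and 2 were males aged 2.7 and 2.6 years and animal 3 was a female aged 2.7 years, so the animal and the sex of animal 3 cannot be told apart. All had lived in group cages with no experimental treatment, and all were perfused with heparinised saline under a pentobarbital overdose before dissection. Sulci guided the dissection: PMv came from the caudal bank of the lower arcuate limb and the adjoining convexity, and A46 from both banks of the principal sulcus. The other 12 arrays, from primary motor cortex (M1) and dorsal premotor cortex (PMd) of the same animals, enter the model to share the estimate of the spread and are used in 1 further comparison. The series asks which transcripts differ between motor and prefrontal areas.

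PMv is known for neurons that take part in grasping and in shaping the hand. It sends axons to primary motor cortex and to the spinal cord, and its layer 4 of small granule cells is thin or absent. A46 belongs to the dorsolateral prefrontal cortex, has a clear layer 4 and is known for holding information in working memory. Large pyramidal neurons of motor areas are rich in neurofilament, and heavily myelinated axons run through motor cortex. In whole tissue pieces such as these, fewer cells of a type and less RNA per cell cannot be told apart.

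Values are log2 array intensities of single probe sets, so the level of 1 gene is not set against that of another. Median intensity was 47.9 to 51.6 over the 24 arrays, and log2 values of any 2 of the 12 PMv and A46 arrays correlated at 0.952 to 0.995 across probe sets. The left PMv arrays of animals 1 and 2 stood apart by a narrow spread: their interquartile ranges were 2.58 and 2.67 on the log2 scale, against 2.73 to 2.91 on the other 22 arrays. As a sign of RNA quality, the 3′ over 5′ log2 ratio of the actin controls averaged 1.1 ± 0.14 in PMv and 1.08 ± 0.1 in A46, and that of GAPDH 0.92 ± 0.06 in PMv and 0.84 ± 0.05 in A46 (SD, n = 3 animals each).

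In PMv, 9 of 17 genes of oligodendrocytes and myelin and 3 of 8 genes of neurofilaments and large projection neurons were higher than in A46, with the neurofilament gene NEFH and the perineuronal net gene ACAN among the 15 furthest above it. Lower in PMv were 8 of 20 immediate early genes, the semaphorin SEMA3C, the adhesion protein gene TENM2 and the calcium sensor gene NCALD. Of 10043 genes tested, 72 rose in PMv (0.717%) and 83 fell (0.826%) at a limma adjusted p under 0.05, with hemispheres averaged, animals as blocks and 3 animals per area. Differences were moderate: 9 genes rose and 0 fell by 2-fold or more, and the median over all genes was -0.02 on the log2 scale. At an unadjusted p under 0.05 the count was 1896. All 155 called genes had the same sign in all 3 animals, but they were called on those same animals, so this is no separate check. The number past the threshold depended on the animals. Limma called 21 genes when animal 1 was left out and 2524 when animal 3 was. When animal 2 was left out it called 0, with 458 at an unadjusted p under 0.05. Without the animal as a block, 1 gene passed, the leukocyte gene CD53. An exact permutation test over 3 animal pairs cannot give a two-sided p below 0.25, so single values rest on the model across all probe sets.

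The genes named first are the 15 with the largest log2 differences each way among the called genes. The plot by animal shows that animal 3 had the smallest difference of the 3 animals in 26 of these 30 genes. Over all called genes, animal 3 was smallest for 47 of the 72 that rose and for 71 of the 83 that fell. Animal 2 had the largest difference in 64 of the 72 that rose and in 17 of the 83 that fell.

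**Figure D1:**
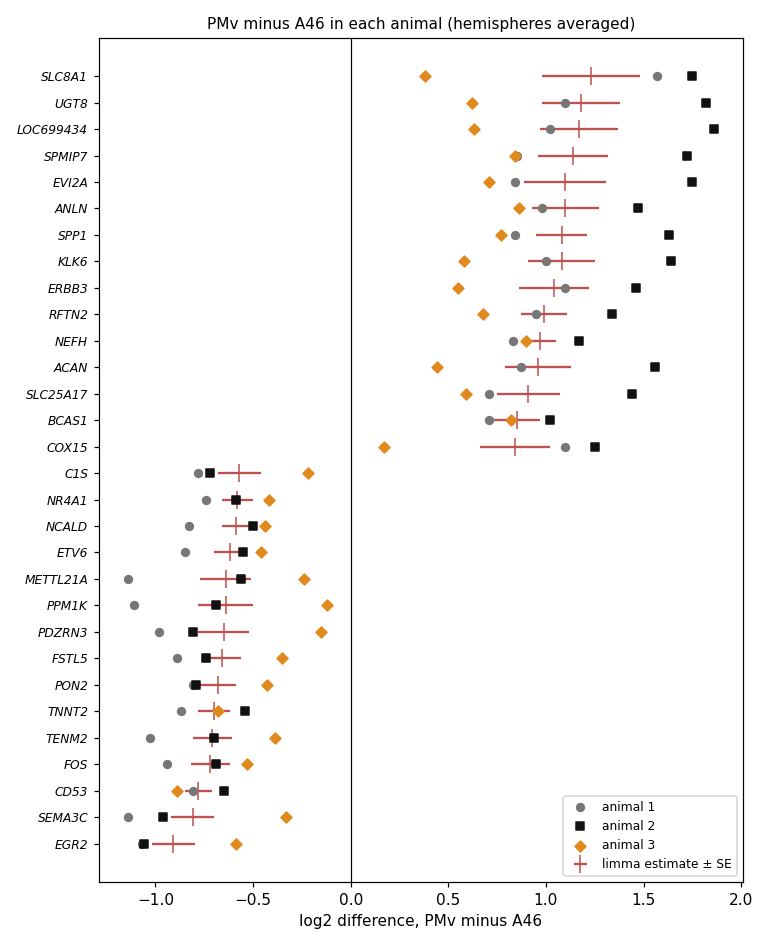
Log2 difference PMv minus A46 (horizontal axis) for the 15 genes furthest above and the 15 furthest below A46 (vertical axis). Symbols are the 3 animals with hemispheres averaged and red crosses the limma estimate with its SE. Every symbol lies on the same side of 0 for its gene, as the choice of genes required, and the animal closest to 0 reaches 0.17 among the genes that rose and -0.12 among those that fell.

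NEFH encodes the neurofilament heavy chain, which fills thick axons. Its log2 level on the 6 arrays of each area was 9.72 at the lowest, 10.02 at the median and 10.13 at the highest in PMv, against 8.59, 8.98 and 9.38 in A46. The arrays of the 2 areas did not overlap, and every PMv array was above every A46 array. NEFH was 1.95-fold higher in PMv (log2 difference 0.97, SE 0.08, adjusted p = 0.000206, limma), and the differences in animals 1, 2 and 3 were 0.83, 1.17 and 0.9. Without animal 1 and without animal 3 the limma adjusted p was 0.00405 and 1.42e-05, without animal 2 it was 0.0966, and without the animal block 0.108.

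SPP1 encodes osteopontin, a secreted phosphoprotein found in large projection neurons of primate motor cortex. Its log2 level was 8.54, 9.11 and 9.59 (lowest, median and highest) in PMv, against 7.85, 8.07 and 8.37 in A46. All PMv arrays were again above all A46 arrays, and the difference was 1.08 (SE 0.13, adjusted p = 0.00344, limma). It was 1.63 in animal 2, against 0.84 in animal 1 and 0.77 in animal 3.

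RFTN2, a gene of the raftlin family of lipid raft proteins, measured 7.45, 7.84 and 8.27 in PMv, against 6.78, 6.85 and 7.18 in A46. The areas did not overlap, and RFTN2 was 1.98-fold higher in PMv (0.99, SE 0.12, adjusted p = 0.00344, limma). Both PMv arrays of animal 2, at 8.27 and 8.25, were above the other 4 PMv arrays.

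A list of genes of neurofilaments and of large projection neurons had 8 tested members, of which 3 rose and 0 fell, beside 0.717% and 0.826% of all genes, and the list's median was 0.2. NEFH and SPP1 were joined by HAPLN4, a link protein of the extracellular nets around neurons. Its levels were 7.37, 7.59 and 8.22 in PMv, against 6.83, 6.97 and 7.06 in A46, with no overlap (0.72, SE 0.1, adjusted p = 0.00594, limma). The other 5 members did not pass. VAMP1, a synaptic vesicle fusion protein of fast synapses, differed by 0.22 (adjusted p = 0.128) and the surface glycoprotein gene THY1 by 0.18 (adjusted p = 0.19). Of the 8 members, 5 had an unadjusted p under 0.05, beside 1896 of all 10043 genes. Without animal 1, 2 or 3, limma counted 3, 0 and 5 members that rose, beside 15, 0 and 741 of all genes. When the animal block was dropped the count was 0, beside 0 of all genes. With right arrays alone 3 members rose, beside 36 of all genes.

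ACAN encodes aggrecan, the main proteoglycan of these nets. It measured 8.16, 8.73 and 9.2 in PMv, against 7.39, 7.73 and 8.11 in A46, and the areas did not overlap, though the lowest PMv array lay only just above the highest A46 array. The difference was 0.96 (SE 0.17, adjusted p = 0.0224, limma), with 0.87, 1.56 and 0.44 in animals 1, 2 and 3. Another probe set for ACAN also rose (0.98, adjusted p = 0.0315), and the remaining one, of lower level, differed by 0.06 (adjusted p = 0.766). Among 19 tested genes of extracellular matrix and integrins, 3 rose and 0 fell, beside 0.717% and 0.826% of all genes, and the median was 0.03. ACAN and HAPLN4 were joined by HAPLN2, a link protein of the nodes of Ranvier (0.65, SE 0.13, adjusted p = 0.031). Versican (VCAN, 0.44, adjusted p = 0.0672) did not pass, nor did brevican (BCAN, 0.03, adjusted p = 0.892).

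SLC8A1, a sodium-calcium exchanger of the plasma membrane, had the largest difference of the called genes, 1.23 (SE 0.25, adjusted p = 0.0336, limma). Its levels were 7.72, 8.66 and 9.16 in PMv, against 6.49, 7.37 and 7.5 in A46. Both PMv arrays of animal 3, at 7.74 and 7.72, were below the other 4, which were at 8.6 to 9.16, and the animals' differences were 1.57, 1.75 and 0.38. A second probe set for SLC8A1 with a lower level did not share the sign (-0.04, adjusted p = 0.91).

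**Figure D2:**
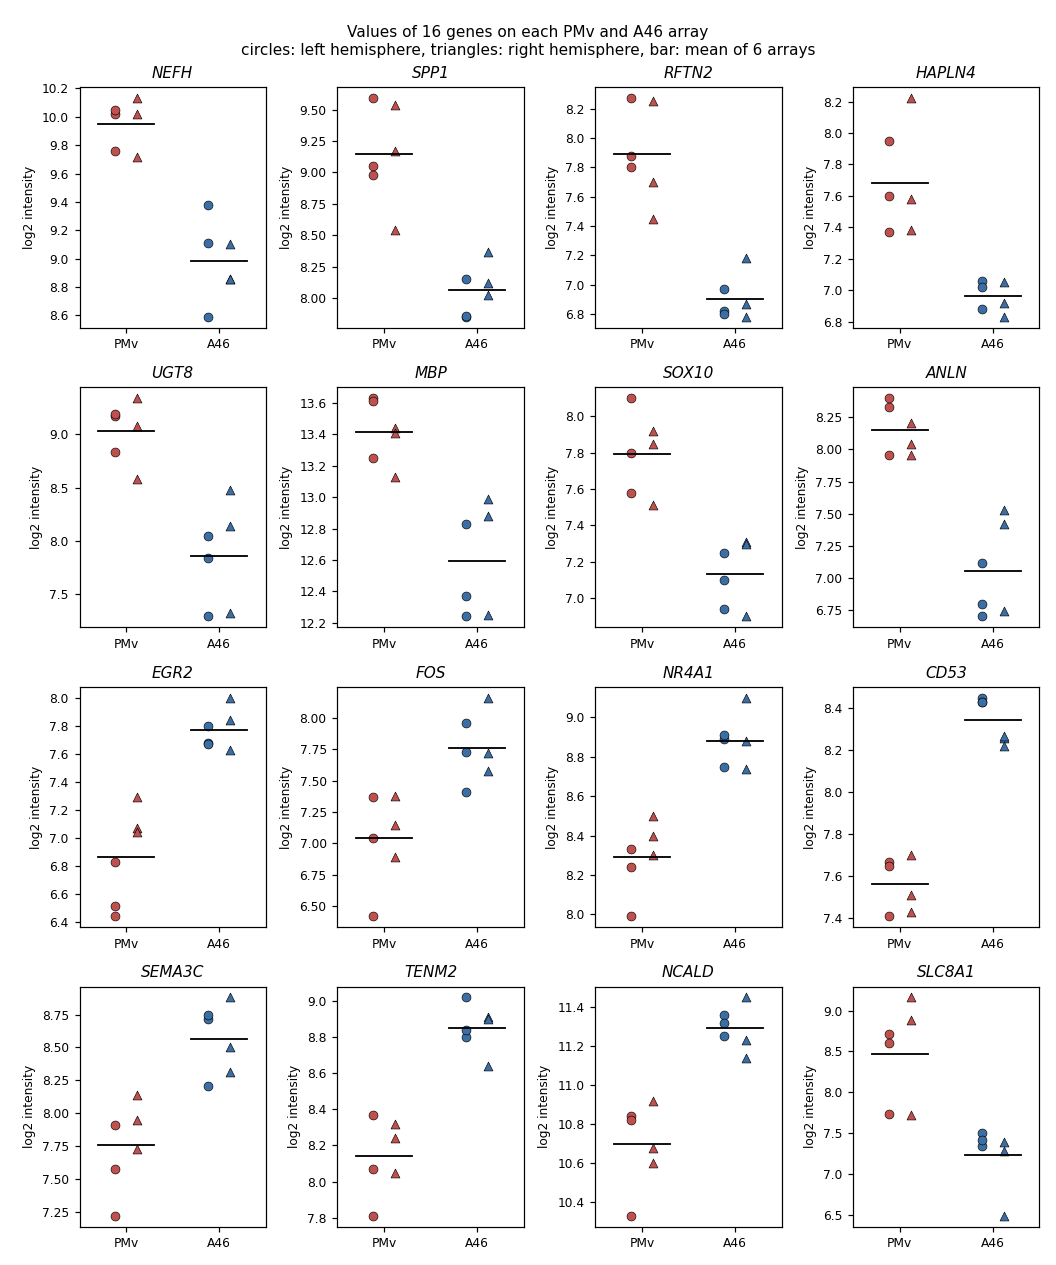
Log2 intensity (vertical axis, its range set per gene) of 16 genes on the 6 PMv arrays (red, left) and the 6 A46 arrays (blue, right). Circles are left and triangles right hemispheres, and the bar is the mean of 6 arrays. In each panel the PMv and A46 points do not overlap: the top 8 genes and SLC8A1 are higher in PMv and the others lower.

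Among the 17 genes tested from the list for oligodendrocytes and myelin, 9 rose and 0 fell, beside 0.717% and 0.826% of all genes. The list's median difference was 0.61, against -0.02 over all genes, and 16 of the 17 differences were positive. UGT8, which synthesises galactosylceramide for the myelin sheath, measured 8.58, 9.12 and 9.34 in PMv, against 7.29, 7.95 and 8.48 in A46. The 2 areas did not overlap, and UGT8 was 2.26-fold higher in PMv (1.18, SE 0.2, adjusted p = 0.0183, limma).

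MBP, myelin basic protein, measured 13.13, 13.43 and 13.63 in PMv, against 12.24, 12.6 and 12.99 in A46, again without overlap. It rose by 0.82 (SE 0.13, adjusted p = 0.0135, limma), with 0.79, 1.21 and 0.46 in animals 1, 2 and 3. SOX10, the transcription factor that directs oligodendrocyte development, measured 7.51, 7.82 and 8.1 in PMv, against 6.9, 7.17 and 7.31 in A46 (0.66, SE 0.12, adjusted p = 0.0255). Its other probe set differed by 0.21 (adjusted p = 0.244). ANLN, an actin-binding protein that also occurs in myelin, measured 7.96, 8.13 and 8.4 in PMv, against 6.7, 6.96 and 7.53 in A46 (1.1, SE 0.17, adjusted p = 0.00978). For these 3 genes every PMv array was above every A46 array.

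The other members that rose were EVI2A (1.1, adjusted p = 0.0313) and, named here after their values were seen, plasmolipin (PLLP, 0.79, adjusted p = 0.0375), TMEM144 (0.74, adjusted p = 0.0421), the myelin regulatory factor MYRF (0.55, adjusted p = 0.04) and CLDND1 (0.4, adjusted p = 0.0373). Among those that did not pass, the myelin proteolipid MAL differed by 0.61 (adjusted p = 0.0565), the lineage factor OLIG2 by 0.32 (adjusted p = 0.0826) and CNP, a phosphodiesterase of myelin, by -0.2 (adjusted p = 0.181).

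The summed intensity of the 17 oligodendrocyte markers was 17941 to 23730 over the PMv arrays, against 12687 to 17029 over the A46 arrays, with no overlap. All 17 lay above the intensity filter. MBP alone made up 48.6% to 55.4% of the summed intensity in PMv and 37.3% to 47.7% in A46. These percentages are shares of array intensity and not of transcripts. Without MBP the sum of the other 16, calculated after these values were seen, was 8187 to 11225 in PMv, against 7399 to 8910 in A46, and the ranges overlapped. The part of oligodendrocyte content in the genes that rose was not tested. Of the 17 genes, 15 had an unadjusted p under 0.05, beside 1896 of all 10043 genes. Leaving out animal 1, 2 or 3 gave limma counts of 1, 0 and 14 members that rose, beside 15, 0 and 741 of all genes. Dropping the animal block gave 0, beside 0 of all genes. With right arrays alone 1 member rose, beside 36 of all genes, and the list's median was 0.42. Without the 2 narrow left PMv arrays 12 rose, beside 195 of all genes, and the median was 0.58.

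Several of the remaining genes among the 15 furthest above A46 are known from oligodendrocytes. KLK6, a secreted serine protease made by oligodendrocytes, rose by 1.08 (SE 0.17, adjusted p = 0.0133). ERBB3, a neuregulin receptor, rose by 1.04 (SE 0.18, adjusted p = 0.0177), with 3 of its 4 probe sets sharing the sign and 1 passing. BCAS1, a gene of newly myelinating oligodendrocytes, rose by 0.85 (SE 0.12, adjusted p = 0.0062). It was the 1 of 6 tested oligodendrocyte precursor markers to pass, beside 0.717% of all genes that rose, with a list median of 0.11.

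The rest have other or unsettled roles. SLC25A17, a peroxisomal membrane carrier, rose by 0.91 (SE 0.16, adjusted p = 0.0196), and COX15, which makes the haem of cytochrome oxidase, by 0.84 (SE 0.18, adjusted p = 0.0442). COX15 differed by 1.1 and 1.25 in animals 1 and 2 and by 0.17 in animal 3, whose 2 PMv arrays reached 6.58 and 6.37, beside an A46 range of 5.95 to 6.53. Of 29 mitochondrial respiratory chain genes none passed in limma (median 0.04, 5 at an unadjusted p under 0.05), and the smallest p in that list, of COX7B, came with a difference of 0.24 (adjusted p = 0.14). SPMIP7, a sperm microtubule protein gene, rose by 1.14 (SE 0.18, adjusted p = 0.0131), and LOC699434, for which no role is given here, by 1.17 (SE 0.2, adjusted p = 0.0177). CRYAB, a small heat shock protein, rose by 0.65 (SE 0.12, adjusted p = 0.0238). It was the 1 of 13 chaperone genes to pass, beside 0.717% of all genes that rose, with a median of -0.1 over that list.

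Immediate early genes, which neurons switch on within minutes of activity, ran the other way. Of 20 tested, 8 fell in PMv and 0 rose, beside 0.826% and 0.717% of all genes. All 20 differences were negative, and the median was -0.38, against -0.02 over all genes. EGR2, a zinc finger transcription factor, measured 6.44, 6.94 and 7.29 in PMv, against 7.63, 7.74 and 8 in A46. No PMv array reached the lowest A46 array, and EGR2 was 1.87-fold lower in PMv (-0.91, SE 0.11, adjusted p = 0.00377, limma), with -1.07, -1.06 and -0.59 in animals 1, 2 and 3. Its other probe set, of lower level, differed by -0.11 (adjusted p = 0.447).

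FOS, a subunit of the AP-1 transcription factor, measured 6.42, 7.09 and 7.38 in PMv, against 7.41, 7.72 and 8.16 in A46 (-0.72, SE 0.1, adjusted p = 0.00602). NR4A1, an orphan nuclear receptor, measured 7.99, 8.31 and 8.5 in PMv, against 8.74, 8.89 and 9.1 in A46 (-0.58, SE 0.08, adjusted p = 0.00616). IER2 measured 8.03, 8.4 and 8.56 in PMv, against 8.82, 8.88 and 8.98 in A46 (-0.54, SE 0.08, adjusted p = 0.00605). The 3 genes had no overlap between the areas, and for FOS the gap between the highest PMv and the lowest A46 array was the narrowest of these.

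The other 4 that fell, named after their values were seen, were KLF10 (-0.5, adjusted p = 0.0209), IER5 (-0.45, adjusted p = 0.0183), the phosphatase gene DUSP1 (-0.4, adjusted p = 0.0373) and JUNB (-0.4, adjusted p = 0.0437). Members known from synaptic plasticity missed the threshold: NPAS4 differed by -0.52 (adjusted p = 0.0763), ARC by -0.3 (adjusted p = 0.0936), HOMER1 by -0.29 (adjusted p = 0.088) and BDNF by -0.29 (adjusted p = 0.186). EGR1 has no probe set naming it in the annotation used. Leaving out animal 1, 2 or 3 gave limma counts of 1, 0 and 15 members that fell, beside 6, 0 and 1783 of all 10043 genes. Dropping the animal block gave 0, beside 1 of all genes. With all animals 17 of the 20 had an unadjusted p under 0.05, beside 1896 of the 10043. With right arrays alone 5 members fell, beside 23 of all genes, and the list's median was -0.29.

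SEMA3C, a secreted semaphorin that guides axons and migrating neurons, measured 7.22, 7.82 and 8.14 in PMv, against 8.21, 8.61 and 8.88 in A46. The areas did not overlap, and both probe sets were lower in PMv (-0.81, SE 0.11, adjusted p = 0.00602, limma), but the differences in animals 1, 2 and 3 were uneven, at -1.14, -0.96 and -0.33. Of 33 axon guidance ligands and receptors 3 fell and 0 rose, beside 0.826% and 0.717% of all genes, with a median of -0.05. The others were EPHA3, an ephrin receptor (-0.42, SE 0.08, adjusted p = 0.0339), and NTNG1, a membrane-anchored netrin (-0.5, SE 0.11, adjusted p = 0.0442). ROBO1, a receptor of the SLIT proteins, had the largest positive difference of the list, 0.35 (adjusted p = 0.0763), and did not pass.

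TENM2, a teneurin that bridges synapses, measured 7.81, 8.16 and 8.37 in PMv, against 8.64, 8.87 and 9.02 in A46, without overlap (-0.71, SE 0.1, adjusted p = 0.00578). CDH8, a cadherin, was the 1 of 14 cadherin and protocadherin genes to fall, beside 0.826% of all genes (-0.45, SE 0.1, adjusted p = 0.0462, list median -0.1). NCALD, a neuronal calcium sensor, measured 10.33, 10.75 and 10.92 in PMv, against 11.14, 11.29 and 11.45 in A46 (-0.59, SE 0.07, adjusted p = 0.00344). Of these, NCALD had the smallest SE.

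CD53, a tetraspanin of leukocytes and microglia, had the smallest adjusted p of the genes that fell. It measured 7.41, 7.58 and 7.7 in PMv, against 8.22, 8.35 and 8.45 in A46. The gap between the areas was wider than the range within either, and the difference was -0.78 (SE 0.07, adjusted p = 0.000834, limma), with -0.81, -0.65 and -0.89 in animals 1, 2 and 3. Another probe set gave -1.32 (adjusted p = 2.59e-05), and the remaining one, of lower level, -0.02 (adjusted p = 0.906). Of 14 tested microglia and leukocyte markers CD53 alone passed, beside 0.826% of all genes that fell. In this list 12 differences were positive and the median was 0.12. TYROBP, a signalling adaptor of microglia, differed by 0.45 (adjusted p = 0.0672) and P2RY12, their ADP receptor, by 0.31 (adjusted p = 0.169). The summed intensity of 15 microglia markers, 14 of them above the filter, was 2806 to 3289 in PMv, against 3005 to 3242 in A46.

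The other 8 genes of the 15 furthest below A46 fell by 0.57 to 0.7. TNNT2, which encodes a troponin best known from heart muscle, differed by -0.7 (SE 0.08, adjusted p = 0.00281), and PON2, an antioxidant lactonase, by -0.68 (SE 0.09, adjusted p = 0.00478). ETV6, a transcriptional repressor, differed by -0.62 (SE 0.08, adjusted p = 0.00344), and its 3 probe sets had the same sign. FSTL5, a secreted follistatin-like protein, differed by -0.66 (adjusted p = 0.00978) and C1S, a complement protease, by -0.57 (adjusted p = 0.0238). PDZRN3, a ubiquitin ligase (-0.65, adjusted p = 0.0363), METTL21A, a methyltransferase of HSP70 proteins (-0.64, adjusted p = 0.0328), and PPM1K, a mitochondrial phosphatase (-0.64, adjusted p = 0.0461), differed most in animals 1 and 2. Their differences were between -1.14 and -0.56 in those animals and -0.15, -0.24 and -0.12 in animal 3.

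Markers of cortical layers were then compared, because the 2 areas differ in their granular layer. Of 8 tested layer 4 and granular cortex markers none passed in limma (3 at an unadjusted p under 0.05), and their median was -0.15. RORB, the nuclear receptor that marks layer 4, measured 6.82, 7.03 and 7.2 in PMv, against 7.24, 7.51 and 7.97 in A46. Its arrays did not overlap, but the animals' differences of -0.9, -0.43 and -0.15 varied and RORB missed the threshold (-0.49, SE 0.12, adjusted p = 0.0642). CUX2, a homeobox gene of upper layers, differed by -0.27 (adjusted p = 0.158).

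None of 13 upper layer markers passed either (6 at an unadjusted p under 0.05), and 1 of the 13 differences was positive (median -0.09). FREM3, a matrix protein, differed by -0.46 (adjusted p = 0.0547) and MEF2C by -0.29 (adjusted p = 0.0515). Both were at -0.07 in animal 3. Each gene is represented by its brightest probe set, and 1 of the 3 other MEF2C probe sets passed (-0.42, adjusted p = 0.0237).

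Layer 5 markers went both ways, with 2 that rose and 3 that fell, beside 0.717% and 0.826% of all genes. Of 12 tested, POU3F1, a POU-domain transcription factor (0.35, SE 0.07, adjusted p = 0.0358), and OPRK1, the kappa opioid receptor (0.53, SE 0.1, adjusted p = 0.027), rose. CRYM, a thyroid hormone-binding protein (-0.37, SE 0.08, adjusted p = 0.0373), NTNG1 and TSHZ2, a zinc finger transcription factor (-0.42, adjusted p = 0.0451, named after its value was seen), fell, and the median was 0.03. In limma with right arrays alone 0 rose and 0 fell, beside 36 and 23 of all genes. Without the 2 narrow left PMv arrays 3 rose and 3 fell, beside 195 and 120 of all genes. FEZF2, the factor that directs corticospinal neuron fate, differed by 0.38 (SE 0.09, adjusted p = 0.0585), with 0.25, 0.61 and 0.28 in the animals, and did not pass. BCL11B lay below the intensity filter.

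Of 11 layer 6 and subplate markers 1 rose, OPRK1, and 1 fell, beside 0.717% and 0.826% of all genes. TSHZ3, a zinc finger transcription factor, measured 7.41, 7.68 and 7.88 in PMv, against 7.95, 8.2 and 8.32 in A46, without overlap. Its differences of -0.53, -0.46 and -0.52 in animals 1, 2 and 3 were close to each other (-0.5, SE 0.07, adjusted p = 0.00742).

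**Figure D3:**
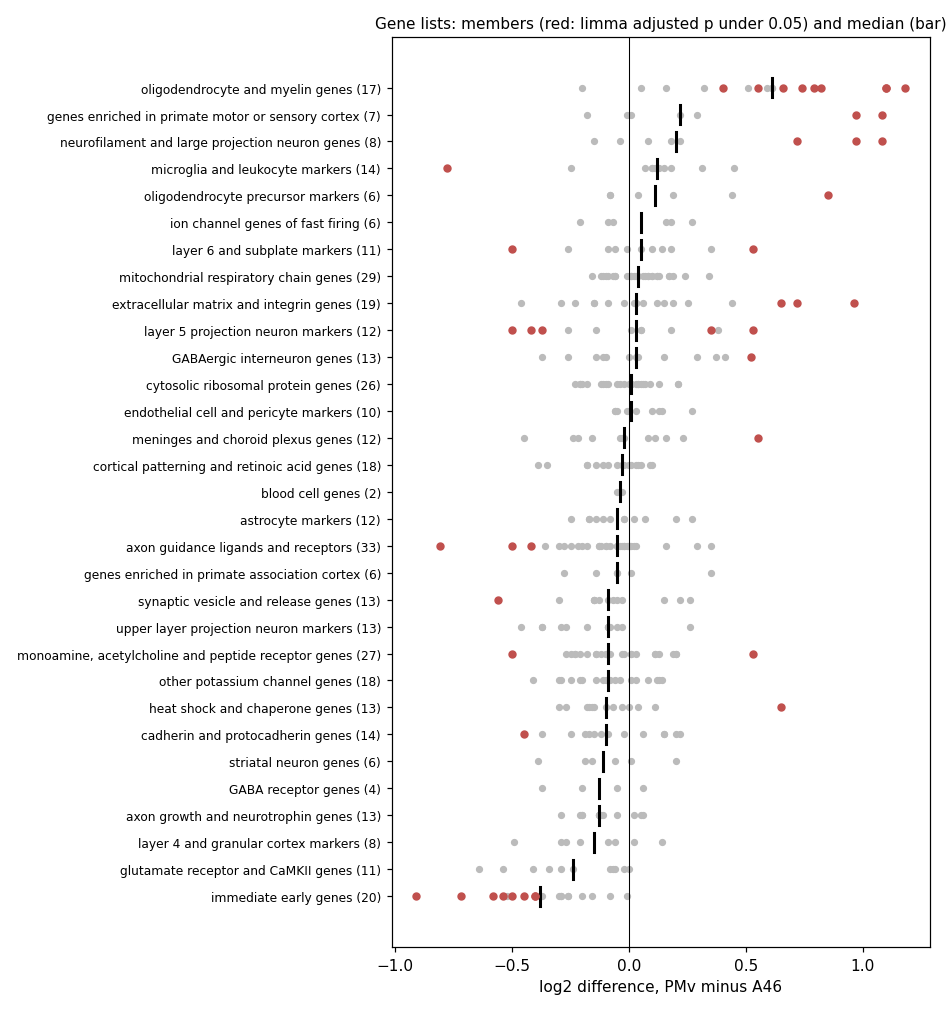
Log2 difference PMv minus A46 (horizontal axis) of the members of 31 gene lists (vertical axis, number tested in brackets), ordered by their median (black bar). Red points passed a limma adjusted p under 0.05 and grey points did not. The oligodendrocyte and myelin list has the highest median, 0.61, and the immediate early list the lowest, -0.38.

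Genes of inhibitory neurons had a median near 0 as a list, with differences both ways. Of 13 tested interneuron genes, CRH, the corticotropin-releasing hormone of some cortical interneurons, rose (0.52, SE 0.1, adjusted p = 0.027), beside 0.717% of all genes. The other 12 did not pass, the list's median was 0.03 and 7 of the 13 differences were positive. Of the 13, 6 had an unadjusted p under 0.05, beside 1896 of all 10043 genes. PVALB, the calcium-binding protein of fast-spiking interneurons, measured 7.83, 8.17 and 8.63 in PMv, against 7.61, 7.86 and 8.33 in A46. The areas overlapped and PVALB differed by 0.29 (SE 0.1, adjusted p = 0.155). VIP, a neuropeptide of another interneuron class, differed by -0.37 (adjusted p = 0.0703) and GAD1, which makes GABA, by -0.26 (adjusted p = 0.0936). None of 6 ion channel genes of fast firing passed in limma (median 0.05, 2 at an unadjusted p under 0.05), with KCNA1 at 0.27 (adjusted p = 0.185), and SST has no probe set naming it in the annotation used. The summed intensity of 14 interneuron markers was 4154 to 5301 in PMv, against 4660 to 5128 in A46.

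Receptor genes mostly missed the threshold. None of 11 genes of glutamate receptors and their partners passed in limma (5 at an unadjusted p under 0.05), although their median of -0.24 was the second lowest of the lists. With right arrays alone the median was -0.13 and 5 of the 11 differences were positive. With left arrays alone, which include the 2 narrow PMv arrays, it was -0.36 and 0 were positive. GRIN1, the obligatory NMDA receptor subunit, differed by -0.64 (SE 0.17, adjusted p = 0.0806) and CAMK2A, the synaptic kinase of plasticity, by -0.54 (SE 0.14, adjusted p = 0.075). For both, animal 3 stood apart: GRIN1 differed by -1.25 and -0.72 in animals 1 and 2 and by 0.07 in animal 3, and CAMK2A by -0.92, -0.72 and 0.02.

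Of 27 receptors of monoamines, acetylcholine and peptides, OPRK1 rose and OPRL1, the nociceptin receptor, fell, beside 0.717% and 0.826% of all genes. OPRL1 measured 10.44, 10.57 and 10.87 in PMv, against 10.98, 11.08 and 11.25 in A46, without overlap (-0.5, SE 0.07, adjusted p = 0.00595, limma). OPRK1 measured 6.74, 7.09 and 7.37 in PMv, against 6.41, 6.5 and 6.73 in A46. These receptors of the opioid family thus differed in opposite directions. STX1A, the syntaxin of synaptic vesicle fusion, was the 1 of 13 synaptic vesicle genes to fall, beside 0.826% of all genes (-0.56, SE 0.1, adjusted p = 0.0184, list median -0.09).

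Among genes known as enriched in primate association cortex, of 6 tested none passed in limma (median -0.05, 2 at an unadjusted p under 0.05). RBP4, the retinol carrier, differed by -0.14 (adjusted p = 0.376), PNMA5 by -0.05 (adjusted p = 0.811) and SLIT1 by -0.28 (adjusted p = 0.204). Of 7 genes enriched in motor or sensory cortex, NEFH and SPP1, already counted among the projection neuron genes, rose, beside 0.717% of all genes (median 0.22). None passed among 18 cortical patterning genes (3 at an unadjusted p under 0.05), where NR2F1, a regulator of area identity, differed by -0.35 (adjusted p = 0.056) and the retinoic acid receptor RARB by -0.39 (adjusted p = 0.0587). GAP43, a growth cone protein long studied in primate association cortex, differed by -0.05 (adjusted p = 0.836), a sign that turned with right arrays alone (0.01) and after quantile normalisation (0.02). In addition, none of 13 axon growth genes, 4 GABA receptor genes, 18 potassium channel genes or 26 ribosomal protein genes passed in limma. Their medians were -0.13, -0.13, -0.09 and 0.01, and 5, 2, 5 and 7 of them had an unadjusted p under 0.05.

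Markers of other cell types were used to describe the pieces. None of 12 astrocyte markers passed in limma (median -0.05, 1 at an unadjusted p under 0.05), and their summed intensity was 27557 to 35123 in PMv, against 31109 to 33439 in A46. None of 10 endothelial and pericyte markers (median 0.01), 6 striatal markers (median -0.11) or 2 blood genes (median -0.04) passed, with 1, 2 and 0 at an unadjusted p under 0.05. Of 12 markers of meninges and choroid plexus 1 rose, beside 0.717% of all genes. This was AQP1, a water channel that astrocytes can also express. It measured 6.37, 6.65 and 7.02 in PMv, against 5.9, 6.22 and 6.35 in A46 (0.55, SE 0.1, adjusted p = 0.0205), while the list's median was -0.02 and its summed intensity 1321 to 2545 in PMv, against 1693 to 2702 in A46. The endothelial sum was 2340 to 2997 in PMv, against 2427 to 2764 in A46. The PMv and A46 ranges of the astrocyte, meningeal and endothelial sums overlapped.

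The 2 hemispheres were examined because the narrow arrays were both left PMv arrays. With right-hemisphere arrays alone, 36 genes rose (0.358%) and 23 fell (0.229%), against 72 and 83 with both hemispheres. All 155 called genes kept their sign on the right arrays and also on the left arrays. Both are part of the averages that gave the calls, so the kept sign is no separate check. On the right arrays 25 of the 72 and 22 of the 83 passed. Among the 30 genes furthest apart, 8 of the 15 that rose and 11 of the 15 that fell passed on the right arrays alone.

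NEFH (1.02, adjusted p = 0.000757), SPP1 (0.91, adjusted p = 0.00972), HAPLN4 (0.8, adjusted p = 0.00803) and SLC8A1 (1.54, adjusted p = 0.0172) passed on the right arrays, and so did CD53 (-0.71, adjusted p = 0.00312), FOS (-0.69, adjusted p = 0.00972) and NCALD (-0.54, adjusted p = 0.00167). Of the 17 oligodendrocyte and myelin genes ANLN alone passed there (0.84, adjusted p = 0.0489). Among those that did not, UGT8 was at 1.02 (adjusted p = 0.0583), MBP at 0.62 (adjusted p = 0.0941) and SOX10 at 0.59 (adjusted p = 0.0619). ACAN did not pass either (0.72, adjusted p = 0.112). For SLC8A1, the right A46 array of animal 2 was at 6.49, against 7.28 to 7.5 on the other A46 arrays.

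Tested in each hemisphere separately, 20 of the 10043 genes passed on both sides. All 20 were among the 155, which were called on averages of the same hemispheres, so this is no separate check. The 8 that rose were NEFH, SPP1, RFTN2, HAPLN4, ANLN, KLK6, BCAS1 and HIBADH, an enzyme of valine breakdown. The 12 that fell were EGR2, NR4A1, IER2, SEMA3C, TENM2, CD53, NCALD, ETV6, PON2, TNNT2, OPRL1 and IGFBP2, a binding protein of insulin-like growth factors. HIBADH (0.61 with both hemispheres) and IGFBP2 (-0.56) were named after their values were seen.

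**Figure D4:**
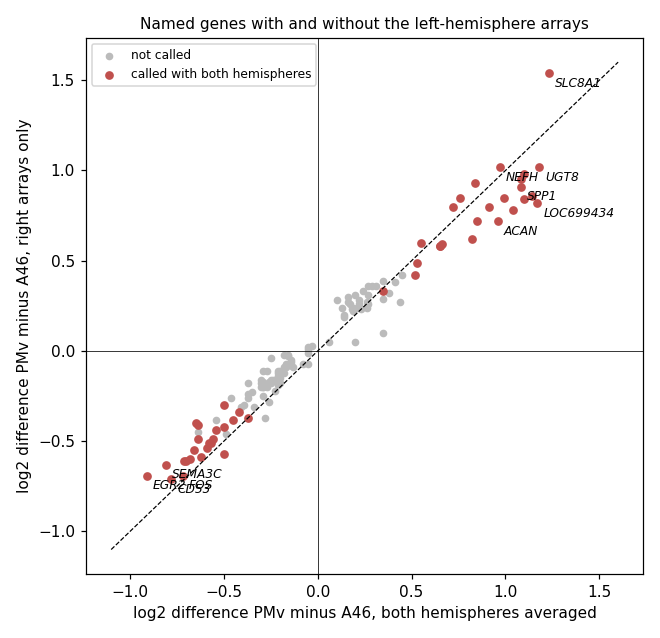
Log2 difference PMv minus A46 from right-hemisphere arrays alone (vertical axis) against that from both hemispheres averaged (horizontal axis) for the named genes. Red points were called with both hemispheres, grey points were not, and the dashed line marks equal values. SLC8A1, at 1.54 and 1.23, lies furthest above the line among genes that rose, and LOC699434, at 0.82 and 1.17, lies furthest below it.

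The share of called genes that rose changed when the 2 narrow arrays were left out, and under other settings too. With the right array standing for those 2 animals, 315 genes were called, of which 61.9% rose, against 46.5% of the 155 with all arrays. Of the 155, 71 of the 72 that rose and 78 of the 83 that fell were still called. Under quantile normalisation 362 genes were called and 56.9% rose. With left arrays alone, which include both narrow arrays, 59.6% of 47 called genes rose, and with right arrays alone 61% of 59. It was 69.2% of 39 with PMv and A46 alone in the model and 40.5% of 608 with the interquartile range as a covariate. Why the share moved was not tested. A direct test of whether PMv minus A46 differed between left and right called 0 of 26383 probe sets (0%, limma), with 1605 at an unadjusted p under 0.05. Without the 2 narrow arrays only animal 3 kept both a left and a right PMv array, so that test cannot speak for PMv across animals. Left minus right of the difference was then -2.11 for COL1A2 and -1.52 for OGN. Both are matrix genes of fibroblasts and meninges, named after their values were seen.

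Separation of single arrays was counted as a description that does not depend on the model. Of the 10043 genes, 1.01% had all 6 PMv arrays above all 6 A46 arrays and 0.826% had all 6 below. Of the called genes, 40 of the 72 that rose and 41 of the 83 that fell were separated in this way. So were 10 of the 15 furthest apart in each direction. These genes were called and picked on averages of the same arrays, so their separation is no separate check. KLK6, BCAS1, SLC25A17, COX15 and LOC699434 were called with overlapping arrays.

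The last comparison set PMv against the mean of M1 and PMd, which asks for each gene whether PMv departs from the other motor areas. It shares the PMv arrays with the comparison above, so the values are given side by side only. Of 10043 genes, 3 rose in PMv (0.0299%) and 14 fell (0.139%), and 1397 had an unadjusted p under 0.05. Leaving out animal 1, 2 or 3 gave 1, 1 and 1696 called genes, and dropping the animal block gave 0 in limma (667 at an unadjusted p under 0.05).

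NEFH was at 10.07, 9.89 and 9.89 in PMv of animals 1, 2 and 3, at 9.24, 8.73 and 8.99 in A46, at 10.72, 10.28 and 10.2 in PMd and at 11.48, 10.99 and 11.2 in M1. PMv therefore lay above A46 and below both other motor areas in every animal. Its difference from the mean of M1 and PMd was -0.86 (SE 0.07, adjusted p = 0.000295, limma), beside 0.97 from A46. RFTN2 (-0.93, SE 0.11, adjusted p = 0.00498) and HAPLN4 (-0.6, adjusted p = 0.0172) also fell against the motor areas. SPP1 fell by 0.71 (SE 0.12, adjusted p = 0.0409), with a PMv mean of 9.14 beside means of 9.37 for PMd and 10.34 for M1. In animal 2 it was at 9.57 in PMv and 9.55 in PMd.

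PVALB and SV2C, a synaptic vesicle protein, passed against the motor areas and missed the threshold against A46, and whether the 2 differences were unequal was not tested. PVALB was at 8.32, 8.39 and 7.93 in PMv of animals 1, 2 and 3, at 8.23, 7.76 and 7.79 in A46, at 9, 8.91 and 8.33 in PMd and at 9.46, 9.26 and 8.9 in M1. PMv was below both motor areas in every animal, and in animal 2 it was nearer to PMd than to A46. The difference from the motor areas was -0.76 (SE 0.09, adjusted p = 0.00498), beside 0.29 (adjusted p = 0.155) from A46. SV2C differed by -0.73 from the motor areas (SE 0.1, adjusted p = 0.017), beside 0.26 (adjusted p = 0.256) from A46. VAMP1 differed by -0.35 (adjusted p = 0.0477), beside 0.22 (adjusted p = 0.128). DDX24, an RNA helicase, differed by -0.73 (adjusted p = 0.00936), beside 0.76 from A46, but only 1 of its 3 probe sets had that sign against A46.

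EPHA3 was at 7.25, 6.9 and 7.47 in PMv, at 7.77, 7.36 and 7.74 in A46, at 7.06, 7.02 and 7.25 in PMd and at 6.39, 6 and 6.45 in M1. PMv was below A46 and above M1 in every animal, while PMv and PMd changed order between animals. EPHA3 rose by 0.51 against the motor areas (SE 0.07, adjusted p = 0.0172), beside -0.42 against A46. The other genes that rose were SYT17, a synaptotagmin (0.37, SE 0.07, adjusted p = 0.0491), and SORBS2, an adaptor of the actin cytoskeleton (0.36, SE 0.06, adjusted p = 0.0491).

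FOS was lower in PMv than in the other areas on average. It was at 6.79, 7.37 and 6.96 in PMv, at 7.72, 8.06 and 7.5 in A46, at 7.71, 8.17 and 7.65 in PMd and at 7.37, 7.35 and 7.15 in M1. PMv was the lowest of the 4 areas in animals 1 and 3, and in animal 2 PMv and M1 were at 7.37 and 7.35. FOS fell by 0.53 against the motor areas (adjusted p = 0.0424).

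**Figure D5:**
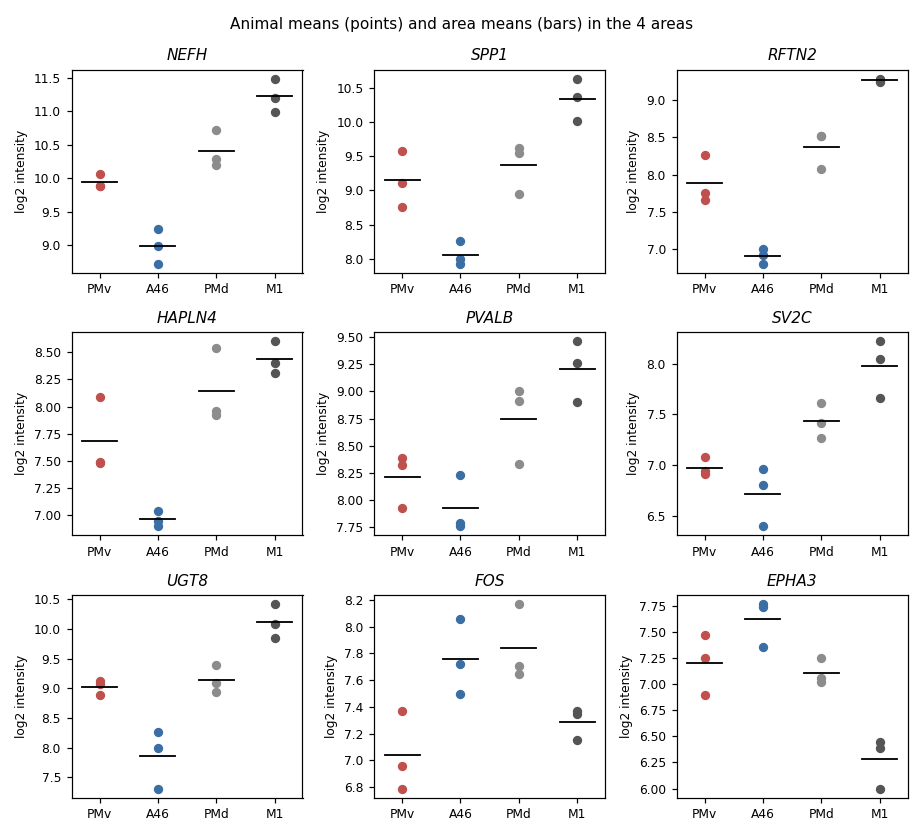
Log2 intensity (vertical axis, its range set per gene) of 9 genes in PMv, A46, PMd and M1. Points are the 3 animals with hemispheres averaged and bars the area means. NEFH, SPP1 and RFTN2 stand higher in PMv than in A46 and lower than in M1, PVALB and SV2C are lower in PMv than in M1 in every animal, and FOS is lowest on average in PMv.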

How the data were processed

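Biotin-labelled total RNA of each tissue piece went onto its own one-colour Affymetrix array, per the labels' protocols. The authors deposited linear intensities per probe set, computed with RMA, the robust multi-array average, according to the submitters' processing notes. The sources used here give neither its version nor which arrays it was run on together. The deposited arrays differ in median and interquartile range, so whether quantile normalisation was applied over all 24 is unknown here. Differences are read within the scale the authors set, and a shift of all transcripts of an area may have been removed by it. There is no read depth; 3 animals limit the precision.

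Groups, hemispheres and animals came from the titles. Intensities were converted to log2 with a floor of 1. Of 52865 probe sets, 99 controls and those with a mean below the median, 5.62 on the log2 scale, were left out, which kept 26383. A gene was represented by its tested probe set with the highest mean, through symbols of the platform annotation (10043 genes; 24956 probe sets with 1 symbol, 361 with several, 27449 with none). No genome build is named, so no coordinates are given. No sequence was printed, and the promoter windows meant for a motif search were not used here.

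Hemispheres were averaged, giving 12 means, and limma 3.58.1 (R 4.3.3; lmFit, eBayes with trend) was fitted with area and animal as terms over all 4 areas. Tests were two-sided, with Benjamini-Hochberg adjustment over 26383 probe sets and a threshold of 0.05; adjusted p-values in the text are limma's. Same-numbered samples come from the same animal: after removal of area means, the PMv and A46 means of animals 1, 2 and 3 correlated at 0.207, 0.611 and 0.239. The procedure was run on data simulated with the model's own spread, which cannot check how the calls depend on the animals.

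Gene lists are described by counts and medians, without a test. Named genes were the 15 furthest apart each way among called genes of the same sign in 3 animals, up to 4 members of each list with the smallest p, up to 6 each way against the motor areas, up to 4 each way for the hemisphere difference, and genes fixed by name. The comparison, lists and genes were chosen with earlier results of these data known: ANLN, EVI2A and TMEM144 in the oligodendrocyte list and FREM3 among upper layer genes, for example. NEFM has no probe set naming it in the annotation used.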

Additional observations from a re-analysis of the deposited data

Results flagged for a closer look

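The 136 named genes were examined for a single array far from the others of its area, which is 272 groups of 6 arrays. In 10 groups the gap between the highest or lowest array and its neighbour exceeded Dixon's critical value, and chance alone flags about 1 group in 20. Most gaps were in A46. SLC8A1 was at 6.49 on the right A46 array of animal 2, against 7.28 to 7.5 on the other 5. ENG, an endothelial receptor, was at 7.35 on the same array, against 7.65 to 7.77. COX7B was at 10.26 on the left A46 array of animal 2, against 10.46 to 10.52, and GAD1 was at 11.1 there, against 11.27 to 11.34. CRH was at 7.47 on the right A46 array of animal 3, against 7 to 7.17. On the left A46 array of animal 3, GPR17, a receptor of oligodendrocyte precursors, was at 5.71, against 5.39 to 5.49, and P2RY12 was at 6.89, against 7.2 to 7.38. On the left A46 array of animal 1, the serotonin receptor gene HTR2A was at 8.32, against 7.9 to 8.06, and TYROBP was at 7.19, against 7.12 to 7.14. In PMv, EPAS1, a hypoxia-inducible transcription factor, was at 9.54 on the left array of animal 2, one of the 2 arrays of narrow spread, against 10 to 10.25 on the other 5.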

How the results depend on the processing

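No called gene among the 136 named changed direction under the alternatives run, which all use the same arrays or part of them. The sign turned in 5 named genes that were not called. GAP43 (-0.05) was at -0.23 to 0.08 without 1 animal, 0.01 with right arrays alone, 0.07 without the narrow arrays, 0.01 with the interquartile range as a covariate, 0.02 after quantile normalisation and 0.08 with the mean of its probe sets. ALAS2 (-0.03) was at -0.07 to 0.01 without 1 animal, 0.03 with right arrays, 0.02 without the narrow arrays and 0 after quantile normalisation. GABRA4 (-0.05) was at -0.12 to 0.05 without 1 animal, 0.02 with right arrays and 0.02 after quantile normalisation. PDE10A (-0.16) was at -0.37 to 0.08 without 1 animal, and EPAS1 (0.1) at -0.07 with left arrays. The counts of called genes moved widely. For PMv minus A46 (155), leaving out 1 animal gave 0 to 2524 genes, with the lowest count without animal 2 and the highest without animal 3. Without the replicate block the paired design was lost and 1 gene was called. The count was 59 with right arrays alone, 47 with left arrays alone, 315 without the 2 narrow left PMv arrays, 39 with PMv and A46 alone in the model, 499 with single arrays and duplicateCorrelation, 608 with the interquartile range as a covariate, 362 after quantile normalisation, 38 after median centring and 101 without an intensity trend. For PMv minus the mean of M1 and PMd (17), the same settings gave 1 to 1696 without 1 animal, 0 without the replicate block, 2 with right and 5 with left arrays, 36 without the narrow arrays, 72 with duplicateCorrelation, 41 with the covariate, 60 after quantile normalisation and 6 after median centring. The hemisphere difference gave 0 genes in the alternatives that kept a left and a right PMv array in more than 1 animal. Without the narrow arrays only animal 3 kept both, so no count is given there. Of 391 different list genes tested, 38 were called, against 0 to 165 without 1 animal, 1 without the replicate block, 17 with right and 21 with left arrays, 17 with PMv and A46 alone, 77 with duplicateCorrelation, 79 with the covariate, 61 after quantile normalisation and 16 after median centring. The cause of these moves was not tested. Of the 155 genes, 155 were called in the same direction without animal 3, 154 after quantile normalisation and 149 without the narrow arrays. PMv and A46 alone gave no value for the other comparisons, and single hemispheres none for the hemisphere difference. The number of animals, 3, limits all counts.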
